A study of Mus musculus with 12 samples.

Results

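Serpins are a large family of proteins that share one fold, most of which block proteases by a suicide mechanism: the protease cuts an exposed loop of the serpin and is then trapped in a distorted, inactive complex. Mouse serpins are sorted into clades by sequence. Clade A holds mostly secreted serpins such as the alpha-1-antitrypsin and alpha-1-antichymotrypsin families, clade B holds intracellular serpins without a classical signal peptide, and some members, such as the collagen chaperone of clade H, inhibit no protease. In mice several families expanded by gene duplication, so that neighbouring copies are close to identical and one array probe may pick up transcripts of more than one of them.

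The serpins were taken from an expression array as every probe whose annotated gene symbol starts with Serpin, which gave 81 of 45281 probes and 56 genes. The arrays measured NIH-3T3 cells, an immortalised mouse embryonic fibroblast line, infected with a lentivirus that carried PPARγ2, the adipocyte form of the ligand-activated nuclear receptor PPARγ. The 4 groups of 3 arrays were cells with the E157D receptor given 20 µM rosiglitazone for 24 h, cells with the E157D receptor given DMSO, cells with the wild-type receptor given 20 µM rosiglitazone for 24 h, and cells with the wild-type receptor given DMSO, the vehicle. Rosiglitazone is a synthetic PPARγ agonist, E157D replaces a glutamate of the receptor by an aspartate, and all 4 groups were grown in blasticidin. Per the labels, the arrays came from 3 independent experiments. No cells without an introduced receptor were included, and the labels do not say whether each receptor was introduced once or several times, so a difference between E157D and wild-type cells cannot be told apart from a difference between 2 infected cell populations.

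Each array detected between 36.7% and 39.6% of all probes at a detection p under 0.05, and log2 values of arrays of one group correlated at r = 0.988 to 0.994 across probes. Levels below are background-corrected, quantile-normalized log2 intensities, on which 1 unit is a doubling; the lowest detected value lay between 5.35 and 5.52 on the 12 arrays. A probe's level was set only against its own level on other arrays. None of the 3 Pparg probes was detected on any array, so the arrays do not show the level of the introduced receptor. All 9 fibroblast markers on the list used (Col1a1, Col1a2, Col3a1, Thy1, Pdgfra, Pdgfrb, Vim, Fn1 and Ddr2) were detected on all 12 arrays. Of the 7 hepatocyte markers on the array, among them Alb and Apoa1, none reached detection on 3 arrays, nor did any of 4 endothelial markers. Cd14 was the only one of 5 leukocyte markers to do so, and 3 of 6 epithelial markers did (Cdh1, Krt8 and Krt14), none of them on all 12 arrays.

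Of the 56 Serpin genes, 16 had a probe detected on at least 3 arrays and were tested, as the plot of detection by clade shows. Clade A contributed 7 tested genes of 21, clade B 7 of 26, clade F 1 of 2 and clade H 1 of 1, and none of the 6 genes of clades C, D, E, G and I was tested. Among the 16, 6 were detected on all 12 arrays (Serpina1b, Serpina1d, Serpina3n, Serpinb6a, Serpinf1 and Serpinh1). Another 5 were detected on 7 to 10 arrays (Serpina3f, Serpinb1a, Serpinb9e, Serpinb9f and Serpinb9g), and 5 on 3 or 4 arrays (Serpina16, Serpina3i, Serpina3j, Serpinb3c and Serpinb6c). A gene that reached 3 arrays only through the group where it was high had to differ between groups, so counts over the 16 genes are descriptions. A further 7 genes were detected on 1 or 2 arrays, and 33 were detected on none. These 33 include Serpinc1 (antithrombin), Serpind1 (heparin cofactor II), Serping1 (the inhibitor of complement C1), Serpinf2 (alpha-2-antiplasmin), Serpina6 (corticosteroid-binding globulin) and Serpinb2 (an inhibitor of urokinase).

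**Figure D1:**
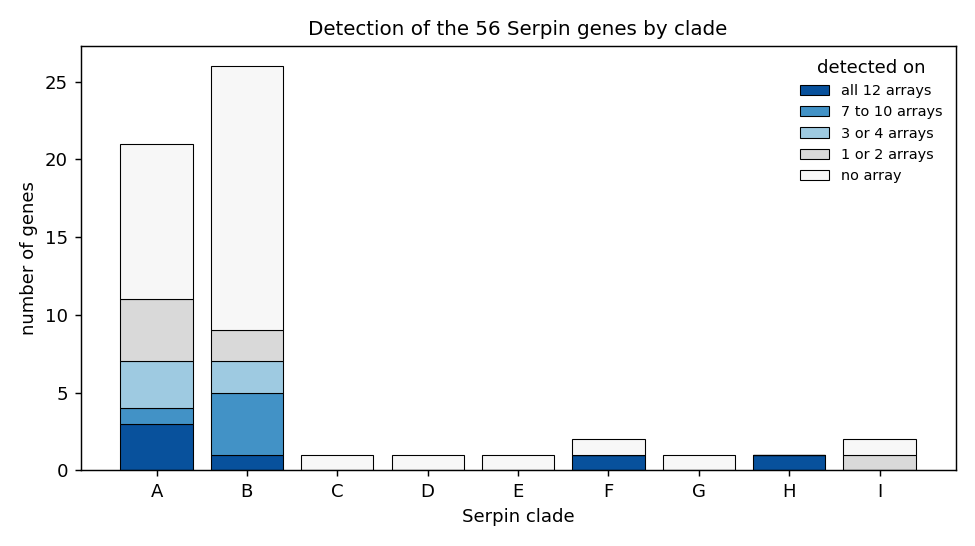
Bars give the number of Serpin genes of each clade on the array, stacked by the number of arrays on which the gene's best-detected probe had a detection p under 0.05. Most genes of clades A and B were detected on no array or on 1 or 2 arrays, and clades F and H each held 1 gene detected on all 12 arrays.

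The changes on which the results turn lie in the Serpinb9 cluster on chromosome 13. Serpinb9 itself is the intracellular inhibitor of granzyme B that protects cytotoxic lymphocytes from their own enzyme, and its copies lie beside it. The annotated promoter windows of Serpinb9e, Serpinb9f and Serpinb9g (RefSeq, GRCm38.p6, 250 bases before to 50 bases after the start, all on the plus strand) are shown because these genes moved together. Serpinb9d, a copy of similar promoter sequence whose probes were not detected, is shown beside them. The windows lie at chr13:33249358-33249657 for Serpinb9e, chr13:33323827-33324126 for Serpinb9f, chr13:33484540-33484839 for Serpinb9g and chr13:33192705-33193004 for Serpinb9d. Capitals mark AGGTCA on either strand, the short sequence that PPARγ binds in pairs together with its partner RXR.
Serpinb9e: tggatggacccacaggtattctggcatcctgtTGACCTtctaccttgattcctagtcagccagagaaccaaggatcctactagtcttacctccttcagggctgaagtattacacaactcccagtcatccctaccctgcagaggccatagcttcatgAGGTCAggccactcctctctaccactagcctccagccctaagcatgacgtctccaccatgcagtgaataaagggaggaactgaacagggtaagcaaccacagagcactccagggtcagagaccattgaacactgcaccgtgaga
Serpinb9f: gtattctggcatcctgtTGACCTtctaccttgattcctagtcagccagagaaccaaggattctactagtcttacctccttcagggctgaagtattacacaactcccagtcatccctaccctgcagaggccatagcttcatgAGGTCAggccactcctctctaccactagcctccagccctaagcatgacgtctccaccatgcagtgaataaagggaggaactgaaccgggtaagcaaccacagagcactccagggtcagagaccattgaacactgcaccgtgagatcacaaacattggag
Serpinb9g: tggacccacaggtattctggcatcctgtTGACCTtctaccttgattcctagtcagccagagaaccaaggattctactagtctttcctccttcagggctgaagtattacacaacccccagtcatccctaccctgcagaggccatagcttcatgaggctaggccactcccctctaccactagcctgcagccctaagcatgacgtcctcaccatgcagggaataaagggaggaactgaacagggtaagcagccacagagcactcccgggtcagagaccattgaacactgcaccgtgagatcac
Serpinb9d: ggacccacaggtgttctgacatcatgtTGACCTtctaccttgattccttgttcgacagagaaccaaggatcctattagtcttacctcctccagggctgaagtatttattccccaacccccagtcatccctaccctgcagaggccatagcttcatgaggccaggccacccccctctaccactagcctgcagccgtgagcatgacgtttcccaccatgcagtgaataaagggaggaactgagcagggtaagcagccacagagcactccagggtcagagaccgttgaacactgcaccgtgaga

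In global alignments, Serpinb9e and Serpinb9g had 93.4% promoter identity, Serpinb9e and Serpinb9f 89.8%, and Serpinb9f and Serpinb9g 89.1%. Gaps and overhanging window ends counted as differences, so windows that start at shifted positions score lower. These values therefore do not rank the pairs. Serpinb9d had between 82.9% and 89.5% identity with these genes, whereas Serpinb9 had 45.4% to 45.8%. The AGGTCA sequence was present in the window of each of the 3 genes and of Serpinb9d, and in 1 of the 2 windows of Serpinb9c, an undetected copy, but in neither that of Serpinb9 nor that of Serpinb9b. The same 6 letters occur, on either strand, in 16.3% of all 32851 promoter windows. The full element of 2 such sequences 1 base apart, AGGTCANAGGTCA, occurs in 0.0396% of windows and in none of the 11 windows of Serpin genes that changed in any comparison. Such matches describe the letters of the window only. The windows lie mostly before the start and do not show how alike the probed transcripts are. Probes of these copies may share transcripts, but neither transcript nor probe sequences were compared here.

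Serpinb9f and Serpinb9g were detected on all wild-type arrays and on no E157D DMSO array, and Serpinb9e was detected on all arrays of wild-type rosiglitazone cells alone. Serpinb9f and Serpinb9g were lower with E157D than with the wild-type receptor both in DMSO and in rosiglitazone, and Serpinb9e in rosiglitazone. All 3 rose with rosiglitazone in wild-type cells, and none passed for that response in E157D cells in the fit without a block. With the replicate number as a block, Serpinb9f (adjusted p = 0.00243) and Serpinb9g (adjusted p = 0.00584) passed in E157D cells. The fitted log2 changes in E157D cells were 1.78 for Serpinb9f, 1.43 for Serpinb9g and 0.55 for Serpinb9e. They rest on E157D DMSO levels that were not detected. None of the 3 passed for the difference of the responses, so a response limited to wild-type cells is not shown. No role is given here for the 3 copies, since the target proteases of each are less well described than that of Serpinb9.

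Serpinb9f had log2 levels of 7.44, 6.01 and 6.50 in E157D rosiglitazone cells, against 5.06, 4.74 and 4.80 in E157D DMSO cells, where it was detected on 0 of 3 arrays. In wild-type cells it had 11.19, 9.74 and 9.58 with rosiglitazone, against 8.93, 7.60 and 7.94 with DMSO. Every E157D array lay below every wild-type array, and with either receptor every rosiglitazone array lay above the DMSO arrays. Here and below, such separation by itself singles out no gene, because it was common among all 13006 features. It held for 24.6% with rosiglitazone in E157D cells and 40.5% in wild-type cells. With E157D it held for 17.1% in DMSO and 36.3% in rosiglitazone. In rosiglitazone, Serpinb9f was lower with E157D by a log2 change of -3.52 ± 0.46 (SE, n = 3 each), or 11.5-fold (adjusted p = 0.000265). Without background correction the same change was -2.37, or 5.18-fold. In DMSO the E157D arrays give only a bound, because a probe that is not well above background has no measured level there. Taking the lowest detected value of each array in place of the undetected one, Serpinb9f was at least 6.60-fold lower with E157D (adjusted p = 0.00356). Such bounds compare group means, leave out their spread and hold on the background-corrected scale only. Without the correction the change was -1.40, or 2.63-fold, and still passed (adjusted p = 0.0174, range 2.39e-05 to 0.0247 over the alternatives).

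Rosiglitazone raised Serpinb9f in wild-type cells by 2.01 ± 0.46 on the log2 scale, or 4.04-fold (adjusted p = 0.00712). In E157D cells its level was at least 2.33-fold higher with rosiglitazone by group means. Without background correction it was 1.52-fold higher and did not pass (adjusted p = 0.255). The fitted log2 change of 1.78, with a 95% interval from 0.79 to 2.78, did not pass the threshold of 0.05 (adjusted p = 0.0515). That response was past the threshold with median scaling, the replicate block or a variance trend, and without E157D rosiglitazone array 2 (log2 change 2.09, adjusted p = 0.0451), without wild-type rosiglitazone array 1 (1.79, adjusted p = 0.0205) and without wild-type DMSO array 1 (1.80, adjusted p = 0.0374), within a range of adjusted p from 0.00243 to 0.273 over the alternatives. The responses of the receptors differed by -0.23 ± 0.65, E157D minus wild-type, with a 95% interval from -1.64 to 1.18 (adjusted p = 0.911). Without background correction the difference was -0.98 (adjusted p = 0.217, range 0.213 to 0.984). Differences of more than 1 log2 unit in either direction lie inside the interval above.

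Serpinb9g had log2 levels of 7.38, 6.23 and 6.02 in E157D rosiglitazone cells, against 5.26, 5.09 and 4.99 in E157D DMSO cells, where it too was detected on 0 of 3 arrays. With the wild-type receptor its levels were 10.27, 8.88 and 8.80 in rosiglitazone, against 8.82, 7.45 and 7.66 in DMSO. The E157D arrays lay below all wild-type arrays, while the wild-type rosiglitazone and DMSO arrays overlapped. Serpinb9g was lower with E157D by -2.77 ± 0.45 in rosiglitazone, or 6.83-fold (adjusted p = 0.00134), and at least 5.84-fold lower in DMSO (adjusted p = 0.00846). Without background correction these were -1.69 in rosiglitazone, or 3.24-fold, and -1.20 in DMSO, or 2.29-fold, and both still passed.

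The rise of Serpinb9g with rosiglitazone in wild-type cells, 1.34 ± 0.45 or 2.53-fold, passed the threshold narrowly (adjusted p = 0.0475). It no longer passed without a detection filter (adjusted p = 0.0852), without wild-type rosiglitazone array 1 (0.86, adjusted p = 0.189), without wild-type DMSO array 2 (1.08, adjusted p = 0.155) or 3 (1.18, adjusted p = 0.135), without E157D rosiglitazone array 2 (adjusted p = 0.0556) or without any one of the E157D DMSO arrays (adjusted p = 0.0585, 0.0597 and 0.0605), within a range from 0.00191 to 0.189 over the alternatives. In E157D cells Serpinb9g was at least 2.16-fold higher with rosiglitazone by group means. Without background correction it was 1.38-fold higher and did not pass (adjusted p = 0.358). The fitted log2 change of 1.43, with a 95% interval from 0.44 to 2.42, did not pass either (adjusted p = 0.111). It passed with median scaling (adjusted p = 0.0302), the replicate block (0.00584) and a variance trend (0.0263), within a range from 0.00584 to 0.369. The difference of the responses was 0.09 ± 0.64, with a 95% interval from -1.31 to 1.49 (adjusted p = 0.966), and -0.50 without background correction.

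Serpinb9e was measured by 2 probes. The first, with the higher mean and used in the test, had log2 levels of 5.53, 5.20 and 5.60 in E157D rosiglitazone cells, against 4.86, 4.95 and 4.88 in E157D DMSO cells, with detection on 2 of 3 and 0 of 3 arrays. In wild-type cells it had 9.56, 7.60 and 8.02 with rosiglitazone, against 6.56, 5.29 and 5.80 with DMSO, where 2 of 3 arrays detected it. The wild-type rosiglitazone arrays stood above all others and the undetected E157D DMSO arrays below all others, while E157D rosiglitazone and wild-type DMSO arrays overlapped. Serpinb9e rose with rosiglitazone in wild-type cells by 2.51 ± 0.42, or 5.69-fold (adjusted p = 0.0012), and was lower with E157D than with the wild-type receptor in rosiglitazone by -2.95 ± 0.42, or 7.72-fold (adjusted p = 0.000507). Without background correction these changes were 1.26, or 2.40-fold, and -1.40, or 2.63-fold, and both still passed.

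In E157D cells the log2 change of Serpinb9e with rosiglitazone was 0.55 ± 0.42 (adjusted p = 0.543). The difference of the responses, E157D minus wild-type, was -1.96 ± 0.59, with a 95% interval from -3.26 to -0.67, and did not pass over all features (adjusted p = 0.117). It was -1.09 without background correction and passed with a variance trend alone (adjusted p = 0.035, range 0.035 to 0.234 over the alternatives). The other Serpinb9e probe gave 5.67, 4.62 and 4.79 in E157D rosiglitazone cells, 4.77, 4.64 and 4.59 in E157D DMSO cells, 8.93, 7.45 and 7.23 in wild-type rosiglitazone cells and 5.63, 5.21 and 5.04 in wild-type DMSO cells. It had the same calls: a rise of 2.58 ± 0.38 in wild-type cells (adjusted p = 0.0006), a log2 change of -2.84 ± 0.38 with E157D in rosiglitazone (adjusted p = 0.000355) and no call for the difference of the responses (-2.22 ± 0.54, adjusted p = 0.0652). In DMSO the first Serpinb9e probe was undetected on every E157D array and on 1 wild-type array, so no bound is given. Its fitted log2 change with E157D was -0.99 ± 0.42, with a 95% interval from -1.90 to -0.07, and did not pass (adjusted p = 0.406). Without background correction the change was -0.31, or 1.24-fold.

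**Figure D2:**
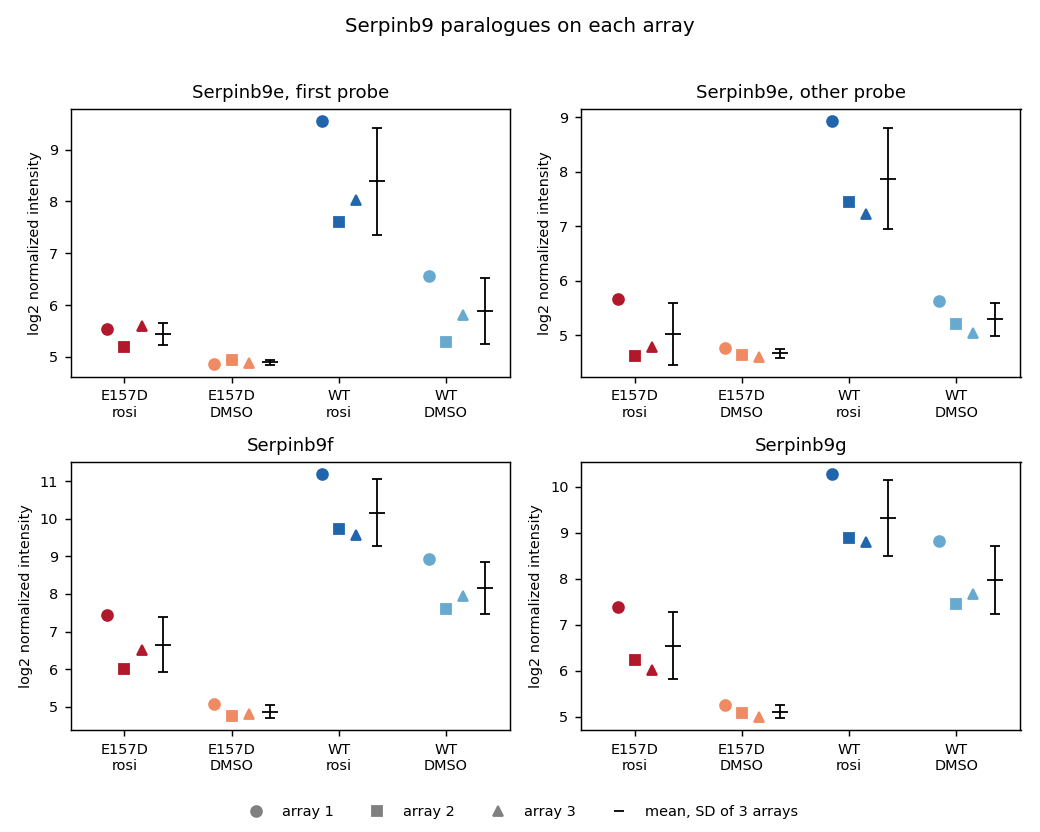
Points give the log2 normalized intensity on each array for the 2 probes of Serpinb9e and for Serpinb9f and Serpinb9g, with the mean and SD of 3 arrays per group in black; rosi stands for rosiglitazone and each panel has its own axis. E157D DMSO arrays lie below the detected range, and array 1 is the highest of its group in wild-type cells in all 4 panels.

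Array 1 was the highest of the 3 wild-type arrays for all 3 genes with either treatment, and the highest E157D array for Serpinb9f and Serpinb9g in both treatments. Its distance to the other arrays made the spread of these probes wide, with SDs of 0.83 to 1.03 among wild-type rosiglitazone arrays. The other Serpinb9 copies on the array, Serpinb9, Serpinb9b, Serpinb9c and Serpinb9d, were detected on no array, as were Serpinb1b, Serpinb1c, Serpinb6b, Serpinb6d and Serpinb6e of the same chromosome 13 cluster.

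Like the mean levels of Serpinb9e, Serpinb9f and Serpinb9g, the summed level of adipocyte markers was highest in wild-type rosiglitazone cells. Of 5 adipocyte markers on the array, 4 were tested (Adipoq, Plin1, Fabp4 and Cidec). None of them was detected on all 12 arrays, so their low sums in DMSO may lie near the detection limit. A difference between the receptors in DMSO therefore cannot be read from them, and the sums were not tested. Their summed linear intensity was 220 to 271 in E157D rosiglitazone cells, against 104 to 106 in E157D DMSO cells, and 1824 to 2430 in wild-type rosiglitazone cells, against 146 to 190 in wild-type DMSO cells. The summed level of the 9 fibroblast markers was 31289 to 38170 in E157D rosiglitazone cells, against 47626 to 49700 in E157D DMSO cells, and 21219 to 28428 in wild-type rosiglitazone cells, against 40979 to 44931 in wild-type DMSO cells. The 3 tested epithelial markers summed to 113 to 129 in E157D rosiglitazone cells, against 117 to 126 in E157D DMSO cells, and to 208 to 232 in wild-type rosiglitazone cells, against 139 to 142 in wild-type DMSO cells. Cd14 had 107 to 139 in E157D rosiglitazone cells, against 120 to 222 in E157D DMSO cells, and 128 to 199 in wild-type rosiglitazone cells, against 204 to 218 in wild-type DMSO cells. The part of these shifts in the Serpin results was not tested, and in RNA from whole cultures a change in the number of cells of one state and a change of RNA per cell cannot be told apart.

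Of the other 4 tested clade B genes, 1 was called. Serpinb6a, an intracellular inhibitor of trypsin-like proteases and cathepsin G, fell with rosiglitazone in wild-type cells. Its log2 levels were 12.59, 12.34 and 12.51 in E157D rosiglitazone cells and 12.68, 12.47 and 12.53 in E157D DMSO cells, which overlapped. In wild-type cells they were 12.39, 12.24 and 11.88 with rosiglitazone, against 12.74, 12.64 and 12.57 with DMSO, and here the arrays did not overlap. The same held for 40.5% of all features. The log2 change in wild-type cells was -0.48 ± 0.13, or 1.40-fold lower (adjusted p = 0.0209). That call was lost with median scaling in place of quantile normalization (-0.31, adjusted p = 0.193), without wild-type rosiglitazone array 3 (-0.34, adjusted p = 0.0735) and without wild-type DMSO array 1 (-0.44, adjusted p = 0.0598) or 2 (-0.49, adjusted p = 0.0515), within a range from 0.00231 to 0.193. A second Serpinb6a probe, detected on 4 arrays, gave 0.14 ± 0.30 in this comparison (adjusted p = 0.78).

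Serpinb1a, an inhibitor of neutrophil elastase, passed in no comparison with all arrays. It had 5.84, 5.99 and 5.62 in E157D rosiglitazone cells and 4.91, 5.27 and 5.52 in E157D DMSO cells, and 6.12, 5.72 and 5.65 in wild-type rosiglitazone cells and 5.29, 6.39 and 6.64 in wild-type DMSO cells. Wild-type DMSO array 1 lay more than 1 log2 unit below the other arrays of its group and decided the result. Without it, Serpinb1a was lower with E157D in DMSO (-1.30, adjusted p = 0.0159, against -0.87 and 0.248 with all arrays), was lower with rosiglitazone in wild-type cells (-0.69, adjusted p = 0.0301, against -0.28 and 0.535), and its responses differed between receptors (1.28, adjusted p = 0.0385, against 0.86 and 0.347). Over the alternatives the adjusted p ranged from 0.0159 to 0.503, from 0.0301 to 0.988 and from 0.0385 to 0.551 in these comparisons. Serpinb3c and Serpinb6c, each detected on 3 arrays, had log2 levels between 4.79 and 5.81 and passed in no comparison.

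Clade A changes were led by Serpina3n, an acute-phase serpin of the alpha-1-antichymotrypsin family that inhibits granzyme B and elastase in mice. It was lower with E157D than with the wild-type receptor in both treatments, and fell with rosiglitazone in wild-type cells. Serpina3f, a further copy of that family, was also lower with E157D in both treatments. Serpina1b, a mouse alpha-1-antitrypsin, fell with rosiglitazone in wild-type cells.

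Serpina3n had log2 levels of 11.76, 11.89 and 11.82 in E157D rosiglitazone cells, against 12.31, 12.34 and 12.23 in E157D DMSO cells. Wild-type cells had 12.63, 12.96 and 12.88 with rosiglitazone, against 13.26, 13.63 and 13.28 with DMSO. The 4 groups did not overlap, and all E157D arrays lay below all wild-type arrays. With E157D, Serpina3n was lower by -1.10 ± 0.13 in DMSO (2.14-fold, adjusted p = 0.000758) and by -0.999 ± 0.13 in rosiglitazone (adjusted p = 0.000202), and both calls held under all 20 alternatives run.

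Rosiglitazone lowered Serpina3n in wild-type cells by a log2 change of -0.57 ± 0.13, or 1.48-fold (adjusted p = 0.00625), a call that median scaling removed (-0.40, adjusted p = 0.106, range 0.00029 to 0.106). In E157D cells the change was -0.47 ± 0.13 and did not pass (adjusted p = 0.062). It passed under 7 of the 20 alternatives: without background correction (adjusted p = 0.0119), on probes detected on all 12 arrays (0.0367), with the authors' processed values (0.0135), with the replicate block (0.03), with a variance trend (0.00724), without wild-type rosiglitazone array 1 (0.0462) and without wild-type DMSO array 2 (0.0408), within a range from 0.00724 to 0.352 over the alternatives. The responses differed by 0.10 ± 0.18, with a 95% interval from -0.29 to 0.49 (adjusted p = 0.848).

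Serpina3f had log2 levels of 5.49, 5.01 and 5.70 in E157D rosiglitazone cells and 5.87, 5.30 and 5.66 in E157D DMSO cells, with detection on 2 of 3 arrays each. In wild-type cells, where all arrays detected it, it had 6.44, 6.87 and 6.68 with rosiglitazone and 7.15, 6.32 and 7.20 with DMSO. E157D and wild-type arrays did not overlap, whereas rosiglitazone and DMSO arrays did with either receptor. With E157D the log2 change was -1.28 ± 0.25 in DMSO (adjusted p = 0.0308) and -1.27 ± 0.25 in rosiglitazone (adjusted p = 0.00418). The E157D levels lay near the detection limit, so the size of these changes rests on the background correction: without it they were -0.45 in DMSO, or 1.37-fold, and -0.41 in rosiglitazone, or 1.33-fold, and both passed. The call in DMSO was lost without a detection filter (adjusted p = 0.0506), without E157D DMSO array 2 (-1.12, adjusted p = 0.142) or 3 (-1.30, adjusted p = 0.107) and without wild-type DMSO array 1 (-1.16, adjusted p = 0.123) or 3 (-1.12, adjusted p = 0.114), within a range from 0.0066 to 0.142; the call in rosiglitazone held under all 19 alternatives that gave a value.

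Serpina1b had 7.11, 7.21 and 7.24 in E157D rosiglitazone cells, against 7.56, 7.43 and 7.63 in E157D DMSO cells, and 6.79, 7.18 and 6.96 in wild-type rosiglitazone cells, against 7.46, 7.70 and 7.89 in wild-type DMSO cells. The rosiglitazone arrays lay below the DMSO arrays with either receptor. In wild-type cells the fall was -0.70 ± 0.13, or 1.63-fold (adjusted p = 0.00253), and -0.37, or 1.29-fold, without background correction, where it still passed; the other 2 Serpina1b probes also fell (-0.81 ± 0.24, adjusted p = 0.0281, and -0.55 ± 0.17, adjusted p = 0.0309). In E157D cells the log2 change was -0.35 ± 0.13 (adjusted p = 0.179), and the difference of the responses was 0.35 ± 0.19, with a 95% interval from -0.06 to 0.76 (adjusted p = 0.4).

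Serpina1d has a promoter window 86.9% identical to that of Serpina1b, with gaps and overhanging ends counted as differences. Its probe may share transcripts with those of Serpina1b, but neither transcript nor probe sequences were compared. Serpina1d had 5.80, 6.28 and 6.21 in E157D rosiglitazone cells and 6.26, 6.51 and 6.05 in E157D DMSO cells. In wild-type cells it had 5.62, 6.27 and 5.51 with rosiglitazone and 6.38, 6.12 and 6.67 with DMSO. The arrays of the groups overlapped, and the log2 change with rosiglitazone in wild-type cells was -0.58 ± 0.22 (adjusted p = 0.0676). Without wild-type rosiglitazone array 2 it was -0.83 and passed (adjusted p = 0.0132), as it did on probes detected on all 12 arrays (0.0462, range 0.0132 to 0.213 over the alternatives).

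Serpina3i and Serpina3j, copies of the alpha-1-antichymotrypsin family near the detection limit, were each detected on 3 arrays. Serpina3i had 5.27, 4.84 and 4.90 in E157D rosiglitazone cells, 5.66, 5.21 and 5.10 in E157D DMSO cells, 5.07, 4.82 and 4.77 in wild-type rosiglitazone cells and 5.23, 5.44 and 5.77 in wild-type DMSO cells. It was detected on no rosiglitazone array, on 1 E157D DMSO array and on 2 wild-type DMSO arrays, so its call lower with rosiglitazone in wild-type cells (adjusted p = 0.0332) carries no fold. That call was lost under 6 of 16 alternatives: without background correction (adjusted p = 0.0737), without a detection filter (0.0564), with the authors' processed values (0.12), with a variance trend (0.064) and without wild-type rosiglitazone array 2 (0.0821) or 3 (0.0947), within a range from 0.0217 to 0.12.

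Serpina3j had 5.62, 5.37 and 5.69 in E157D rosiglitazone cells, 5.36, 5.39 and 5.28 in E157D DMSO cells, 4.78, 5.17 and 5.17 in wild-type rosiglitazone cells and 5.74, 5.40 and 5.32 in wild-type DMSO cells. Detection was reached on 2 E157D rosiglitazone arrays and on 1 wild-type DMSO array. It was called lower with rosiglitazone in wild-type cells (adjusted p = 0.0401, and 0.0537 with the replicate number as a block). It was also called higher with E157D in rosiglitazone (adjusted p = 0.0265), where no wild-type array detected it, so no fold is given. Neither call passed without background correction (adjusted p = 0.16 and 0.125), with the authors' processed values (0.248 and 0.223) or with a variance trend (0.123 and 0.086), and the first also failed with median scaling (0.0973) and without a detection filter (0.0665). Without wild-type rosiglitazone array 1 neither call passed (adjusted p = 0.154 and 0.105), and the first was lost too without wild-type DMSO array 2 (adjusted p = 0.062) or any one of the E157D DMSO arrays (adjusted p = 0.0513, 0.0526 and 0.0531), within ranges from 0.0373 to 0.248 and from 0.0205 to 0.223. Serpina16, detected on 4 arrays, passed in no comparison.

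**Figure D3:**
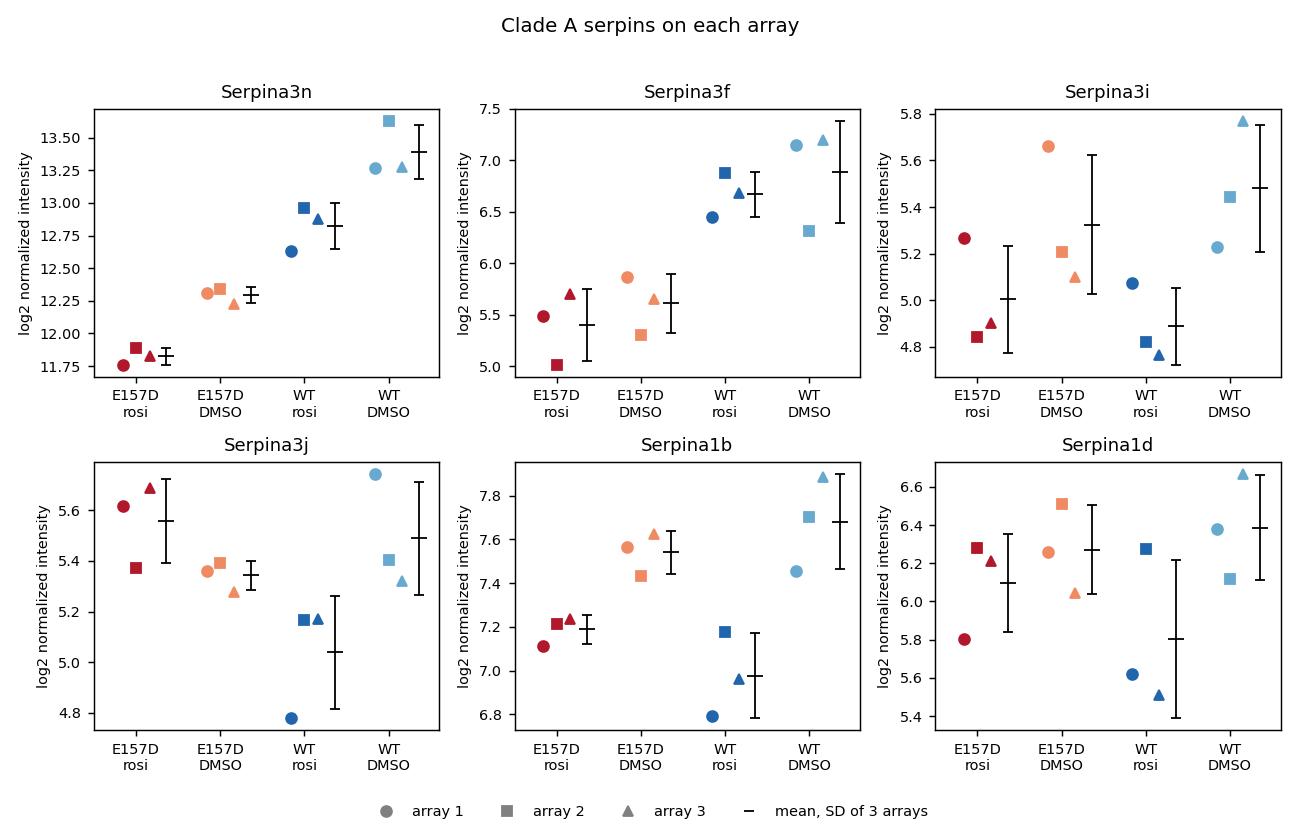
Points give the log2 normalized intensity on each array of 6 clade A serpins, with the mean and SD of 3 arrays per group in black; rosi stands for rosiglitazone and each panel has its own axis. All E157D arrays lie below all wild-type arrays for Serpina3n and Serpina3f, and Serpina3i and Serpina3j stay between 4.77 and 5.77.

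The serpins of clades F and H did not pass in any comparison. Serpinf1, the secreted pigment epithelium-derived factor, which inhibits no protease and restrains vessel growth, had log2 levels of 14.61, 14.48 and 14.83 in E157D rosiglitazone cells and 14.60, 14.59 and 14.63 in E157D DMSO cells. Wild-type cells had 14.75, 14.69 and 14.56 with rosiglitazone and 14.42, 14.69 and 14.62 with DMSO. The groups overlapped. The log2 change with rosiglitazone was 0.03 ± 0.12 in E157D cells (95% interval -0.22 to 0.29) and 0.09 ± 0.12 in wild-type cells (-0.16 to 0.34), and with E157D it was 0.03 ± 0.12 in DMSO (-0.22 to 0.29) and -0.02 ± 0.12 in rosiglitazone (-0.28 to 0.23).

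Serpinh1, the endoplasmic reticulum chaperone of procollagen known as HSP47, had 14.37, 14.20 and 14.36 in E157D rosiglitazone cells and 14.20, 14.23 and 14.21 in E157D DMSO cells. In wild-type cells it had 14.07, 14.11 and 14.12 with rosiglitazone and 14.20, 14.20 and 14.11 with DMSO. All 12 values lay between 14.07 and 14.37, and the E157D arrays stood above the wild-type arrays in rosiglitazone. That difference was 0.21 ± 0.09 (adjusted p = 0.127), passed without background correction (0.0406) and with a variance trend (0.0299, range 0.0299 to 0.305 over the alternatives), and 0.37 ± 0.13 by the second Serpinh1 probe (adjusted p = 0.0788).

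**Figure D4:**
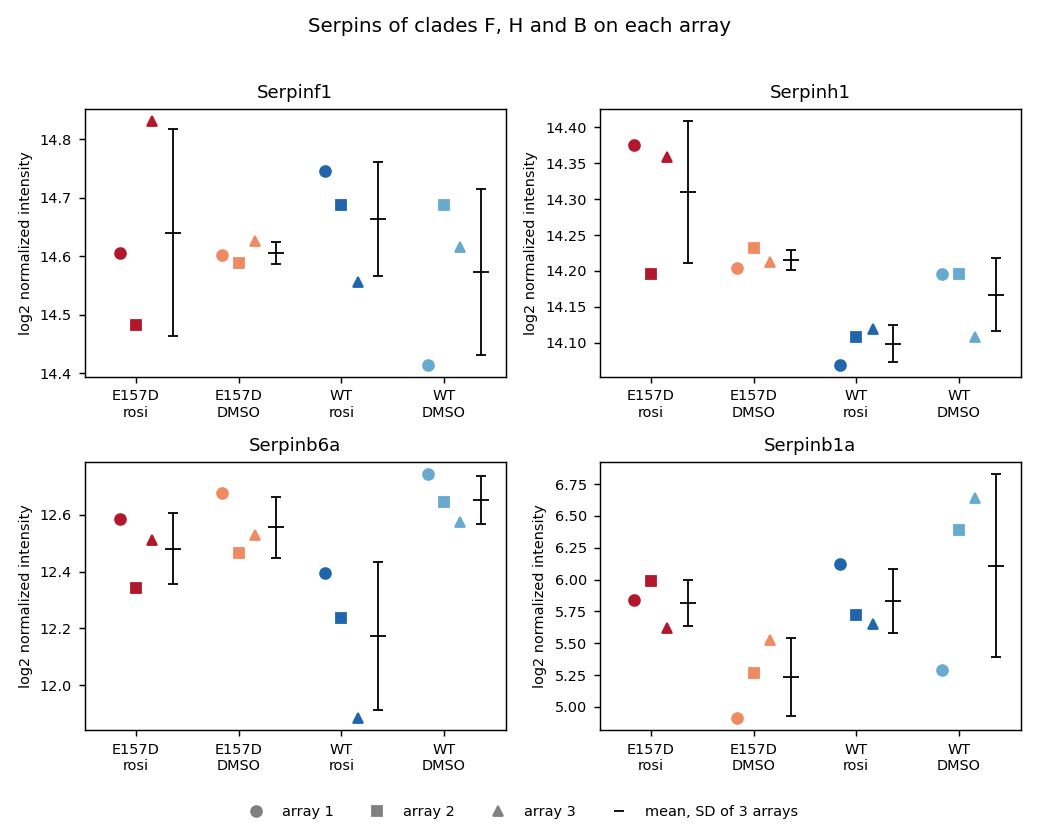
Points give the log2 normalized intensity on each array of Serpinf1, Serpinh1, Serpinb6a and Serpinb1a, with the mean and SD of 3 arrays per group in black; rosi stands for rosiglitazone, and each panel has its own, often narrow, axis. Serpinb6a is lowest on the wild-type rosiglitazone arrays, and the single low wild-type DMSO array of Serpinb1a sits at 5.29.

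Counted over the 16 tested Serpin genes, rosiglitazone in E157D cells called 0 genes in the limma fit, beside 4.10% of all 13006 features (2.31% higher and 1.79% lower). With the replicate number as a block it called 3 (Serpina3n, Serpinb9f and Serpinb9g), and 820 of all features in place of 533. In wild-type cells rosiglitazone called 8 in the fit without a block, beside 26.7% of features (12.3% higher and 14.4% lower). Of these, 3 were higher (Serpinb9e, Serpinb9f and Serpinb9g) and 5 lower (Serpina1b, Serpina3i, Serpina3j, Serpina3n and Serpinb6a). The median log2 change of the 16 genes was 0.04 in E157D cells and -0.14 in wild-type cells, beside -0.01 and -0.03 over all features. E157D against wild-type cells in DMSO called 4 genes, all lower (Serpina3f, Serpina3n, Serpinb9f and Serpinb9g), beside 1.12% of features (0.423% higher and 0.700% lower). In rosiglitazone the E157D receptor called 6, with Serpina3j higher and Serpina3f, Serpina3n, Serpinb9e, Serpinb9f and Serpinb9g lower, beside 19.8% of features (10.5% higher and 9.26% lower). The median log2 change with E157D was -0.15 in DMSO and -0.02 in rosiglitazone, beside 0.01 and 0.02 over all features. For the difference of the rosiglitazone responses 0 genes were called, beside 2.38% of features (0.884% higher and 1.50% lower), with a median of 0.13 beside 0.02. With median scaling the share of all calls that were higher was 77.9% in place of 56.3% for rosiglitazone in E157D cells, 55.6% in place of 37.7% for E157D in DMSO and 77.4% in place of 53.2% for E157D in rosiglitazone. These comparisons share arrays, so their calls are not independent of each other. Probes of the Serpinb9 copies may also share transcripts, so these counts may hold the same signal more than once.

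**Figure D5:**
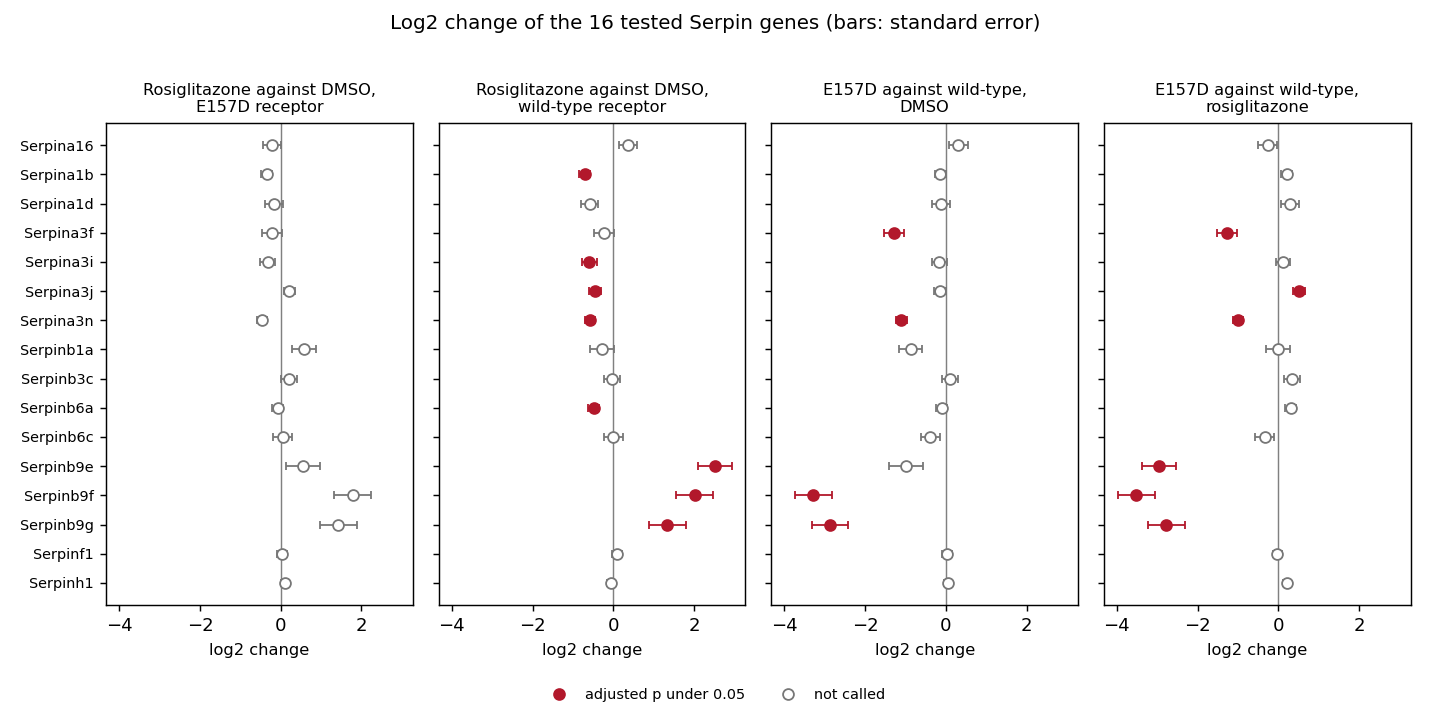
Each row is 1 of the 16 tested Serpin genes; points give the log2 change and bars its standard error in 4 comparisons, with filled red points for genes called at an adjusted p under 0.05. In this fit, which has no replicate block, no gene is called for rosiglitazone in E157D cells. The Serpinb9 copies reach changes of -2.77 to -3.52 with E157D in rosiglitazone. Fitted changes of genes near the detection limit depend on the background correction.

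Proteases and their receptors, protease inhibitors without the serpin fold and genes of collagen folding were taken from 5 lists. In wild-type cells the median log2 change with rosiglitazone was -0.30 for plasminogen activation, -0.52 for coagulation and complement, -0.22 for cathepsins, -0.25 for inhibitors without the serpin fold and -0.21 for collagen folding, beside -0.03 over all features. With E157D in rosiglitazone the medians were 0.32, 0.26, 0.14, 0.30 and 0.18 in the same order, beside 0.02. The counts below stand beside these shares of all features. Rosiglitazone called 4.10% in E157D cells, and 12.3% higher and 14.4% lower in wild-type cells. E157D called 1.12% in DMSO, and 10.5% higher and 9.26% lower in rosiglitazone. The difference of the responses called 2.38%. No set test was run on these short lists. Of 7 tested genes of plasminogen activation, none was called for rosiglitazone in E157D cells, 3 fell in wild-type cells, and with E157D in rosiglitazone 2 were higher and 1 lower. Plat, the tissue plasminogen activator, fell with rosiglitazone in wild-type cells by a log2 change of -1.19 ± 0.12 (adjusted p = 5.83e-05) and had 0.13 ± 0.12 in E157D cells (adjusted p = 0.641). It was the 1 gene of these lists whose responses differed between receptors, by 1.32 ± 0.17 (adjusted p = 0.00234). Plat had 9.85, 9.95 and 9.69 in E157D rosiglitazone cells, against 9.79, 9.73 and 9.59 in E157D DMSO cells, and 8.53, 8.38 and 8.54 in wild-type rosiglitazone cells, against 9.88, 9.65 and 9.49 in wild-type DMSO cells.

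Of 8 tested coagulation and complement genes, Pros1, the anticoagulant protein S, fell with rosiglitazone in E157D cells (-0.77 ± 0.12, adjusted p = 0.004) and in wild-type cells (-1.04 ± 0.12, adjusted p = 0.000121). In wild-type cells 5 of the 8 fell, beside 14.4% of all features, among them F2r, the thrombin receptor (-0.52 ± 0.11). With E157D in rosiglitazone 3 were higher, beside 10.5% of all features. Of 8 tested cathepsins and related lysosomal proteases, 2 fell with rosiglitazone in wild-type cells (Ctsk and Lgmn) and none was called in E157D cells. Ctsk, the collagen-degrading cathepsin K, was higher with E157D in DMSO (0.98 ± 0.14, adjusted p = 0.00417) and in rosiglitazone (1.36 ± 0.14, adjusted p = 4.59e-05), the 1 cathepsin called in each.

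Of 8 tested protease inhibitors without the serpin fold, Slpi, the secretory leukocyte protease inhibitor, fell with rosiglitazone in E157D cells (-1.16 ± 0.24, adjusted p = 0.0197) and in wild-type cells (-1.40 ± 0.24, adjusted p = 0.0013). Pebp1 rose in E157D cells (0.46 ± 0.11, adjusted p = 0.0423). Reck, a membrane-anchored inhibitor of matrix metalloproteinases, fell in wild-type cells (-1.05 ± 0.21, adjusted p = 0.00335) and was higher with E157D in rosiglitazone (1.75 ± 0.21, adjusted p = 0.000133), as was Tfpi, the tissue factor pathway inhibitor (0.62 ± 0.19, adjusted p = 0.0403). Of 15 tested genes of collagen folding, the partners of Serpinh1, none was called for rosiglitazone in E157D cells or with E157D in DMSO. P3h3 (-1.06 ± 0.13, adjusted p = 0.000198) and Ppib (-0.55 ± 0.13, adjusted p = 0.0101) fell with rosiglitazone in wild-type cells, and with E157D in rosiglitazone these and P4ha1 were higher.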

How the data were processed

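The authors deposited a non-normalized intensity and a detection p-value per probe for each of 12 one-colour Illumina arrays, per the file headers, and a table of processed intensity values made by a method that the labels and headers do not state. Probe symbols came from the platform annotation (34885 probes with 1 symbol, 18 with several, 10378 with none), and all 81 Serpin probes matched RefSeq by gene number.

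Intensities were corrected by normexp with an offset of 16 with the background estimated from the detection p-values, followed by quantile normalization and log2 transformation (neqc, limma 3.58.1, R 4.3.3). A probe had to be detected (p under 0.05) on 3 or more arrays, which 18921 were; the one of highest mean per symbol was used, leaving 13006 features. Quantile normalization removes shifts common to all genes. The limma model fitted 4 group means with eBayes, and p-values were Benjamini-Hochberg adjusted over all features, called under 0.05. On simulated data it was checked by recovery of known changes. No pair of arrays held identical values.

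Every Serpin gene was accounted for; those tested are named, and those called are given by array. Up to 4 called members are named per list. Members and lists were chosen with earlier results of these data known. The labels do not say what was independent between the experiments, so p-values measure the spread between these arrays, which may be technical. Nor do they say whether the array number marks the experiment. Deviations of same-numbered arrays correlated at 0.129 to 0.239 in the wild-type rosiglitazone comparison and at 0.0422 to 0.252 in the others. Whether arrays are paired by number therefore stays unsettled. The calls come from the fit without a block, and Serpin calls that changed with the number as a block are named. Array number limits the precision. Promoter windows were compared by global alignment, with gaps and overhanging window ends counted as differences.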

Additional observations from a re-analysis of the deposited data

How the results depend on the processing

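Across 20 alternatives, 11 of the 18 Serpin calls held under every alternative that gave a value, 7 were lost under at least 1, and none reversed. Without background correction, changes of genes near the detection limit shrank: with E157D in DMSO, Serpinb9f had -1.40 in place of -3.29, Serpinb9g -1.20 in place of -2.86 and Serpina3f -0.45 in place of -1.28. The counts of Serpin genes called changed as follows. For rosiglitazone in E157D cells, 0 became 1 without background correction, 2 with median scaling, 1 on probes detected on all 12 arrays, 1 with the authors' processed values, 3 with the replicate block and 3 with a variance trend; leaving out 1 array gave 0 to 2. For rosiglitazone in wild-type cells, 8 became 5 with median scaling, 4 on probes detected on all 12 arrays and 5 without a detection filter, and leaving out 1 array gave 4 to 8. For E157D in DMSO, 4 became 1 on probes detected on all 12 arrays, which removes genes undetected in E157D cells; leaving out 1 array gave 3 to 4. For E157D in rosiglitazone, 6 became 1 under that filter, and leaving out 1 array gave 5 to 6. For the difference of the responses, 0 became 1 with a variance trend (Serpinb9e), and leaving out 1 array gave 0 to 1. Apart from the filter, the cause was not tested.

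With the replicate block, Serpina3n (adjusted p = 0.03), Serpinb9f (0.00243) and Serpinb9g (0.00584) passed for rosiglitazone in E157D cells; 11 of 12 arrays correlated best with their own number, a hint from the data rather than the design. In wild-type cells the block gave 7 calls in place of 8, and it changed no other Serpin call there. Over all features, counts moved beyond 1.5 times. For rosiglitazone in E157D cells, 533 became 928 without background correction, 867 with the authors' values, 820 with the block and 878 with the trend. For E157D in DMSO, 146 became 229 with the authors' values, 233 with the block and 248 with the trend. For the difference, 310 became 657, 194 with median scaling, 678, 471 and 568 in the same order. Leaving out 1 array gave as few as 231, 78 and 184, and 1618 in place of 2571 for E157D in rosiglitazone without wild-type rosiglitazone array 1. Median scaling shifted the median change of all features by 0.11 for E157D in DMSO and 0.15 in rosiglitazone.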

Other observations

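Among the 7 Serpin genes detected on 1 or 2 arrays, Serpinb8, an intracellular serpin, was detected on 2 of 3 E157D rosiglitazone arrays and on no array of the other groups. Serpina5, the protein C inhibitor, was detected on 1 wild-type rosiglitazone array and 1 wild-type DMSO array. The other 5 (Serpina1a, Serpina1c, Serpina4-ps1, Serpinb3a and Serpini2) were each detected on 1 array.

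In the RefSeq gene order the tested genes nearest to the Serpin cluster on chromosome 13 were Foxf2, Foxc1 and Gmds on one side and Nqo2, Tubb2b and Slc22a23 on the other. With E157D in rosiglitazone, Foxc1 was lower (log2 change -0.51 ± 0.16, adjusted p = 0.0403) and Foxf2 higher (1.06 ± 0.29, adjusted p = 0.024), and with E157D in DMSO none of them passed. Tubb2b fell with rosiglitazone in E157D cells (-0.75 ± 0.12, adjusted p = 0.004) and in wild-type cells (-0.62 ± 0.12, adjusted p = 0.00274), and Nqo2 in wild-type cells (-0.44 ± 0.14, adjusted p = 0.0346). These neighbours were chosen by position after the Serpin values were known.

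The letters TTCNNNGAA, the form of site bound by STAT factors, occur on either strand in 8.30% of promoter windows. They are present in the windows of Serpina3f and Serpina3i and in 1 of the windows of Serpinb6a, and not in that of Serpina3n, which is a description of these windows only.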
